A study of Sus scrofa with 2 samples.

Results

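Pig chromosome 12 was examined along its whole length for gains and losses of DNA in an angiosarcoma-like liver tumor and in control liver. Its members are all non-control probes placed on that chromosome by the array design, and 4426 of the 177440 probes on the array met this rule. Of these, 4425 were used on both arrays, since 1 spot of the tumor array carried an outlier flag. The tumor group is 1 array of an angiosarcoma-like lesion from a female pig (Sus scrofa). Diethylnitrosamine (DENA), a carcinogen that forms DNA adducts after activation in the liver, had been injected intraperitoneally as a single shot, given as 200 mg in the labels and as 200 mg/kg elsewhere in the study's text, and the liver was resected 10 months later. The control group is 1 array of non-tumor liver tissue from a female pig, and its labels do not settle whether that animal had received DENA. The tumor DNA came from micro-dissected, paraffin-embedded liver, and the labels repeat this protocol for the control, although its wording names tumors only. The DNA of both was labelled with Cy3, and was hybridized against Cy5-labelled DNA of female reference liver. The labels do not state whether both arrays received the same reference DNA, and the arrays were on separate slides, which leaves an effect of the slide and of the tissue that cannot be told apart.

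Array-based comparative genomic hybridization (aCGH) compares the DNA of a tissue with reference DNA at many mapped probes. The log2 of tissue signal over reference signal falls where the tissue has fewer copies than the reference. In a diploid genome, the loss of 1 of 2 copies in every cell gives a log2 ratio of -1.0 and a gain to 3 copies gives 0.58. A tissue piece averages over its cells, so a change in a share of the cells and a smaller change in all of them cannot be told apart, and admixed normal cells pull the ratio towards 0. Pig chromosome 12 corresponds to human chromosome 17. Of the lists of genes drawn up for this chromosome, the RefSeq gene table of the Sscrofa11.1 assembly places there 31 of 31 genes of growth control and DNA repair. Among these are NF1, a brake on RAS signalling, the kinase gene MAP2K4 and the growth factor receptor gene ERBB2. The table also places there 13 of 13 genes of endothelium and vessels, such as PECAM1, an adhesion molecule of endothelial cells, and 13 of 14 hepatocyte genes, such as FASN, which encodes fatty acid synthase. It places there 8 of 10 genes of the HOXB homeobox list, which pattern the body axis, and 4 of 7 genes of the myosin heavy chain list, most of which form muscle filaments. The remaining genes of these 2 lists were not matched in the table. In all, 1468 genes are placed on the chromosome there, 1121 of them protein coding. The array files pair no probe with a gene and name no genome build, so no gene was assigned to a position here and no value is given for a single gene. DNA ratios hold no marker expression, so the labelled tissues could not be checked against cell type markers.

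The probes of the chromosome are 45 bases long, run from position 1 to position 57407395 of the array design, and have a median distance of 10175 bp between neighbouring starts. The largest distance was 315425 bp. The log2 ratio of tissue over reference was taken from the processed signals and centred on the median of chromosomes 1 to 18 of the same array. The values were summarised as medians in windows of 1 Mb, each with 29 to 99 probes. Errors are given as the SD over probes or as a 95% interval of the median taken from the order statistics of the probes. Both describe the spread of probes within an array and not between animals. With 1 array per tissue the precision is limited. The direction of every ratio rests on the dyes named in the labels, and no dye swap was analysed here by which it could be checked. No test between the tissues was possible and no p-value is given.

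Chromosome 12 lay below the centre of both arrays, further below on the tumor array. Its median log2 ratio was -0.23 on the tumor array (95% interval -0.24 to -0.21, SD over 4425 probes 0.46). On the control array the median was -0.08 (interval -0.09 to -0.07, SD 0.45). These medians are 14.7% and 5.53% below the centre on the linear scale, and the probes of both arrays overlapped widely. The median of the probe by probe difference, tumor minus control, was -0.14 (interval -0.15 to -0.13). Centred on the mode, the most frequent value, instead of the median, the control median was -0.0070 (interval -0.02 to 0.0074), so its side of the centre depended on the centring, and the difference was -0.27. As centred on the autosomal median, all 3 values were the lowest of the 18 autosomes. Another centre shifts all autosomes of an array alike, so by construction this order does not depend on it. On the tumor array chromosome 6 followed with -0.11, chromosome 3 with -0.10 and chromosome 17 with -0.10. Their values on the control array were -0.03, -0.04 and -0.0068. On the difference scale they were -0.09, -0.08 and -0.09. The values of chromosome 12 were closer to the centre with a trend on local brightness removed, as described further on. They were then -0.036 on the tumor array, -0.0038 on the control array and -0.026 for the difference.

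**Figure D1:**
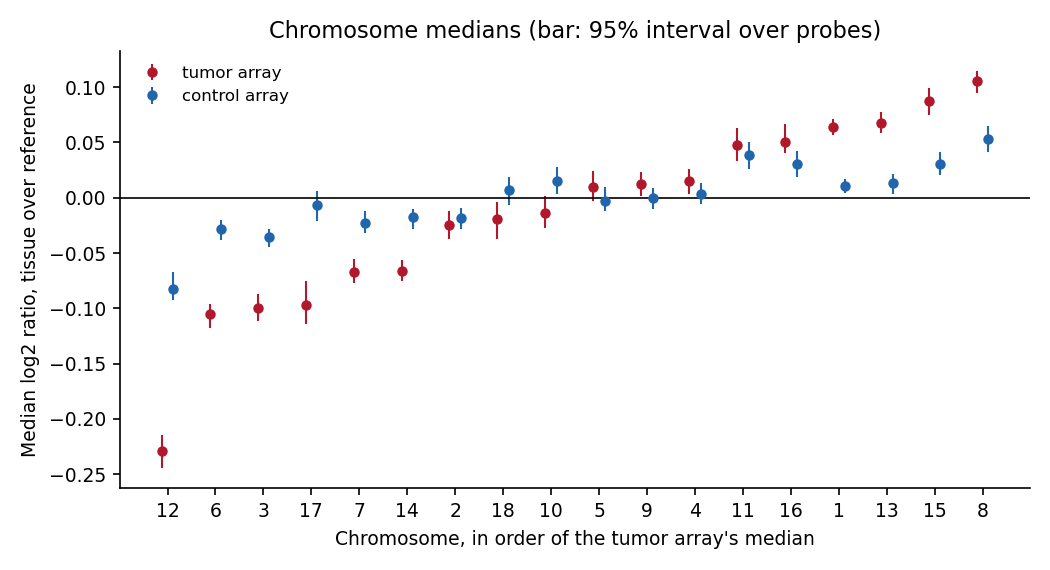
Median log2 ratio of tissue over reference (vertical axis) for the probes of each of the 18 autosomes (horizontal axis, in the order of the tumor array), with the tumor array in red and the control array in blue, and bars for the 95% interval over probes. Chromosome 12 is lowest on both arrays, at -0.23 and -0.08, and the next chromosome on the tumor array, chromosome 6, lies at -0.11.

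The shift was one of many probes by a little and not of a few probes by a lot. On the tumor array 70.1% of the probes of chromosome 12 were below 0, compared to 58.4% on the control array. A log2 ratio of -0.25 or lower was found for 48.0% of them on the tumor array, compared to 28.7% of the probes of the other autosomes, and a ratio of 0.25 or higher for 14.6%, compared to 29.6%. At the level of a loss of 1 copy in every cell, -1.0 or lower, there were 158 probes on the tumor array, a share of 3.57%, beside 3.03% of all autosomal probes. On the control array 54 probes were that low, a share of 1.22%, beside 2.0% of all autosomal probes. On both arrays at once 16 probes of chromosome 12 were that low, or 0.362%, and 0.366% of the probes of the other autosomes. The share of such probes was thus near that of all autosomes on the tumor array and below it on the control array. The noise between neighbouring probes, the SD of their differences divided by the square root of 2, was 0.42 for the tumor and 0.43 for the control. On chromosome 6 it was 0.43 and 0.46.

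Along the chromosome the window medians of the tumor array ranged from -0.55 to 0.22, with a median of -0.25 and an SD over 58 windows of 0.19. On the control array they ranged from -0.27 to 0.13, with a median of -0.08 and an SD of 0.09. By a comparison of the window medians, the tumor array was below the control array in 49 of the windows and above it in 9. In 45 windows both arrays were below 0, in 9 both were above 0, and in 4 the signs differed. The tumor profile thus spanned a wider range in the same windows. The shares of these window counts over all autosomes are not given here. The Pearson correlation of the 2 arrays over the 58 windows was 0.84 (Spearman 0.82), where neighbouring windows are not independent and the arrays share their probes. Over the 2087 windows of the other autosomes the Pearson correlation was 0.76.

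**Figure D2:**
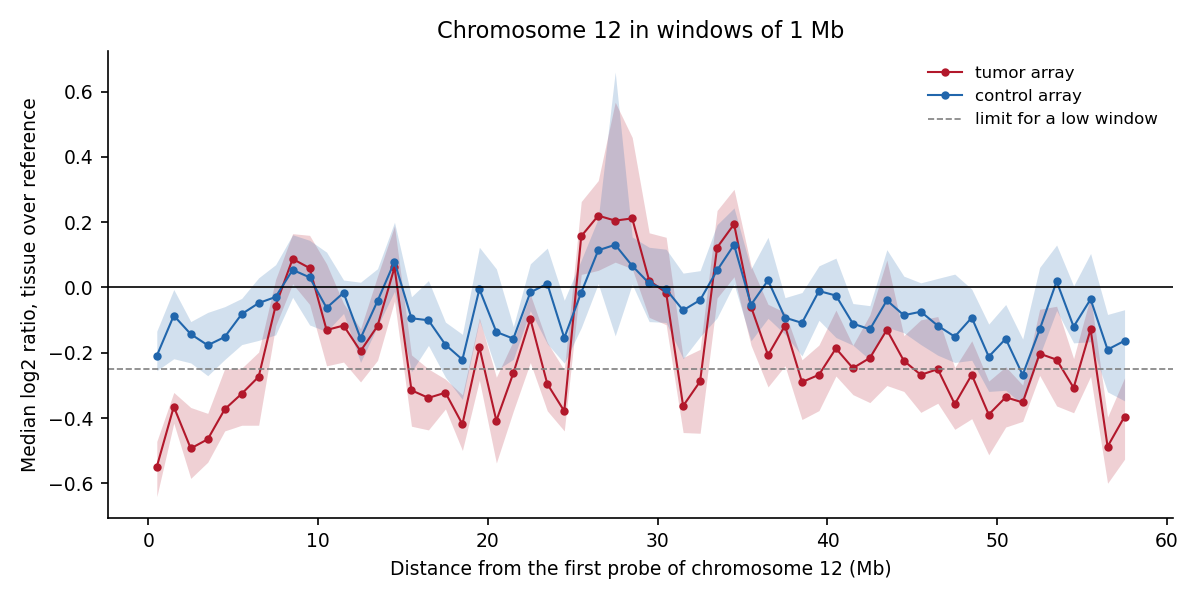
Median log2 ratio of tissue over reference in windows of 1 Mb (vertical axis) against the distance from the first probe of chromosome 12 in Mb (horizontal axis), with the tumor array in red, the control array in blue, shaded 95% intervals over probes and a dashed line at -0.25. The tumor array is lowest in the first window, at -0.55, rises to 0.22 between 26 and 27 Mb, and falls to -0.49 between 56 and 57 Mb, and the control array rises and falls with it in a narrower range.

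Windows with a median of -0.25 or lower were counted as low. On the tumor array 29 of the 58 windows of chromosome 12 were low, beside 12.1% of the 2145 autosomal windows. The share was 29.0% on chromosome 6, 19.4% on chromosome 3 and 16.9% on chromosome 17. On the control array 1 window of chromosome 12 was low, beside 0.326% of all autosomal windows. It was the window from 51 to 52 Mb, at -0.27, where the tumor array had -0.35. No window of chromosome 12 reached 0.25 on either array. On the tumor array all other autosomes held windows that high. There were 29 of 296 on chromosome 1, 5 of 124 on chromosome 6 and 1 of 65 on chromosome 17. The low window nearest to the limit on the tumor array was that from 46 to 47 Mb, at -0.2503, and the nearest one outside the limit was that from 41 to 42 Mb, at -0.2472. Since many windows lay close to the limit, the count moved with it. At a limit of -0.2 there were 35 windows and at -0.3 there were 20. The processing moved the counts further. With normexp, a model-based background correction, 18 windows were low on the control array and 33 on the tumor array. On the tumor array 8 windows were low when single-probe brightness was subtracted and 0 when a trend on local brightness was removed, as described further on.

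The 5 lowest windows of the tumor array were near the chromosome ends, with 1 exception. The window from 0 to 1 Mb had a median of -0.55 on the tumor array (SD over 82 probes 0.36) and -0.21 on the control array. The window from 2 to 3 Mb had -0.49 and -0.14, and that from 3 to 4 Mb had -0.465 and -0.18. At the other end the window from 56 to 57 Mb had -0.49 and -0.19. The exception was the window from 18 to 19 Mb, with -0.42 and -0.22. Over all autosomes, 3 of the 20 lowest windows of the tumor array were on chromosome 12, and 2 other chromosomes had a window lower than its lowest. The 5 highest windows of the tumor array were in the interior. The window from 26 to 27 Mb had 0.22 for the tumor and 0.11 for the control. That from 28 to 29 Mb had 0.21 and 0.07, and that from 27 to 28 Mb, with the fewest probes, had 0.20 and 0.13. The window from 34 to 35 Mb had 0.19 and 0.13, and the window from 25 to 26 Mb had 0.16 and -0.02.

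The low windows formed runs. There were 3 runs of at least 3 neighbours, which held 18 of the 58 windows of the chromosome, beside 5.92% of all autosomal windows. Of the low windows alone, 62.1% were in such runs on chromosome 12, beside 49.0% over all autosomes. The first run held 7 windows from 0 to 7 Mb, with a median of -0.41 on the tumor array (SD over 559 probes 0.38) and -0.14 on the control array (SD 0.40). In windows of 250 kb its lowest part lay from 500001 to 750000, with -0.66 for the tumor and -0.25 for the control. The second run held 4 windows from 15 to 19 Mb, with -0.35 on the tumor array (SD over 326 probes 0.37) and -0.15 on the control array (SD 0.38). The third run held 7 windows from 45 to 52 Mb, with -0.32 (SD over 561 probes 0.43) and -0.15 (SD 0.38). In all 3 runs the median of the control array was below 0 too, but above the limit. With a trend on local brightness removed, as described further on, no window was low. The medians of the 3 runs on the tumor array were then -0.06, -0.05 and -0.03. Longer runs were found on chromosome 6, with up to 13 windows, on chromosome 3 with 10, on chromosome 2 with 9 and on chromosome 1 with 8.

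The profile fell into 7 stretches, which were marked off by eye after the windows had been seen and are described without a test. The first 7 Mb had a median tumor minus control difference of -0.25 (95% interval over probes -0.27 to -0.22). From 7 to 15 Mb the tumor array was near the centre, with -0.05 beside -0.0010 on the control array, and the difference was -0.06 (interval -0.09 to -0.02). From 15 to 25 Mb the tumor array was low again, with -0.30 beside -0.11, and the difference was -0.16 (interval -0.19 to -0.14). From 25 to 31 Mb it was above the centre, with 0.13 beside 0.03, and the interval of the difference of 0.05, from -0.0041 to 0.09, held 0. A short low stretch from 31 to 33 Mb had -0.34 beside -0.05, a difference of -0.22 (interval -0.29 to -0.18). From 33 to 36 Mb the tumor array had 0.04 beside 0.04, and the interval of the difference of -0.02, from -0.08 to 0.05, held 0. The last 22 Mb had -0.28 beside -0.10 and a difference of -0.16 (interval -0.18 to -0.15). By the median of the probe by probe difference, the tumor array was furthest below the control array in the first 7 Mb and from 31 to 33 Mb. Whether an interval held 0 depended on the centring, since with the arrays centred on the mode that of the stretch from 25 to 31 Mb was -0.13 to -0.04 and that of the stretch from 33 to 36 Mb was -0.21 to -0.08.

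Some of the boundaries were steps between neighbouring windows. The largest step between neighbouring windows was at 25 Mb, where the tumor array rose by 0.54, from -0.38 to 0.16, and the control array by 0.14, from -0.15 to -0.02. In windows of 250 kb the tumor array had -0.38 from 24750001 to 25000000 and 0.14 from 25000001 to 25250000. On the control array these windows had 0.04 and 0.08. The next largest steps were at 33 Mb, with a rise of 0.41 from -0.29 to 0.12, and at 15 Mb, where the tumor array fell by 0.38, from 0.06 to -0.32. At these positions the control array rose by 0.09 and fell by 0.17. At all 3 steps both arrays moved in the same direction. With a trend on local brightness removed, as described further on, the steps of the tumor array were smaller. They were 0.17 at 25 Mb, 0.12 at 33 Mb and -0.05 at 15 Mb.

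Windows with a tumor minus control difference of -0.25 or lower were rarer. There were 5 on chromosome 12, beside 1.82% of all autosomal windows. This count moved with the processing, to 33 with the arrays centred on the mode, 1 with the deposited log ratio and 0 with normexp background correction. The lowest was again the window from 0 to 1 Mb, with -0.31. It was followed by the windows from 3 to 4 Mb, with -0.27, from 2 to 3 Mb, with -0.26, from 31 to 32 Mb, with -0.26, and from 56 to 57 Mb, with -0.253. The nearest window outside the limit was that from 1 to 2 Mb, with -0.248. The median of the probe by probe difference was below 0 in 51 of the 58 windows, beside 52.4% of all autosomal windows. It ranged up to 0.09, in the window from 28 to 29 Mb. Centred on the mode it was below 0 in all 58 windows of chromosome 12. That centring shifts every tumor minus control value by -0.1275, on all autosomes alike. The share of all autosomal windows below 0 with that centring is not given here. When the probes were divided alternately along the chromosome, the window medians of both sets had a Pearson correlation of 0.85 on the tumor array, 0.55 on the control array and 0.74 for the difference. Both sets share the tissue, the array and the local brightness, so these values do not measure agreement between arrays or animals.

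**Figure D3:**
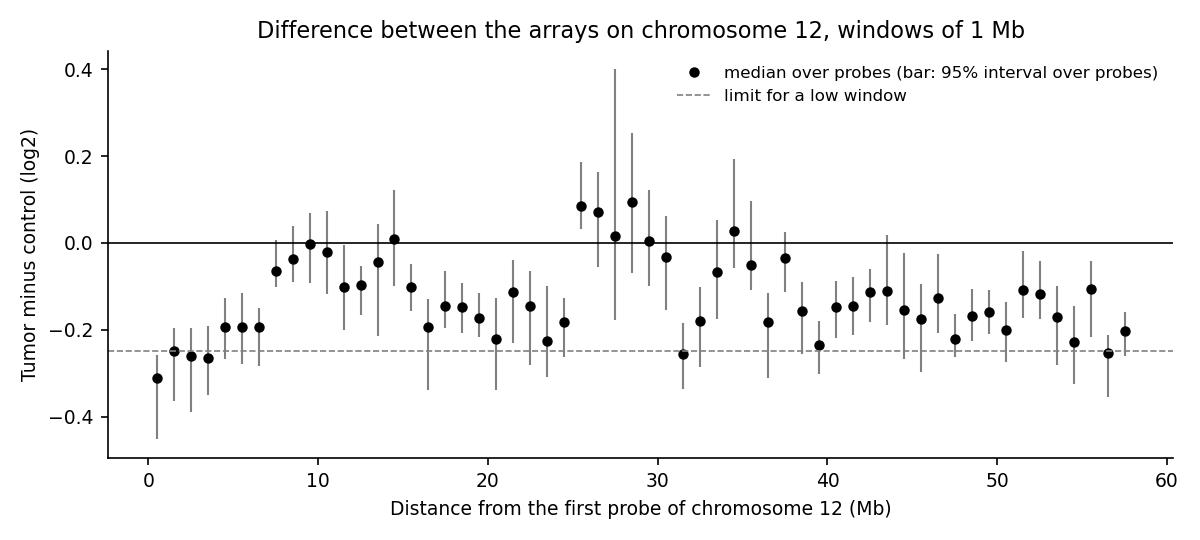
Median tumor minus control difference of the log2 ratio in windows of 1 Mb (vertical axis) against the distance from the first probe of chromosome 12 in Mb (horizontal axis), with bars for the 95% interval over probes and a dashed line at -0.25. The difference is below 0 in 51 of 58 windows, is lowest in the first window at -0.31, and is near or above 0 from 25 to 31 Mb.

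The brightness of the probes moved with these values. Chromosome 12 had the brightest reference channel of the 18 autosomes on both arrays. The median background-subtracted reference signal of its probes reached 205 in the tumor hybridization and 155 in the control hybridization, compared to 157 and 123 on chromosome 6. The median tissue signal was 100.4 for the tumor and 77.7 for the control. The tissue signal was well above background for 87.8% of its probes in the tumor hybridization and for 86.8% in the control hybridization. Dim probes were thus less frequent on chromosome 12 than on the other autosomes. Along the chromosome the reference channel was bright where the ratio was low. In the first 7 Mb the median reference signal of the control array was 247, from 15 to 25 Mb it was 198, from 31 to 33 Mb it was 174 and in the last 22 Mb it was 176. It was 105 from 7 to 15 Mb, 86.4 from 25 to 31 Mb and 64.5 from 33 to 36 Mb. The order was not exact, since the stretch from 31 to 33 Mb had a lower ratio on the tumor array than 2 of the stretches with a brighter reference. At the step at 25 Mb it fell from 351 to 99.99.

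Local brightness was measured as the mean log2 signal in the reference channel of the opposite array, over all probes up to 250 kb to either side of a probe. The value of each array was thus set against the reference signal of the opposite array, while the difference, which contains both arrays, was set against that of the control array. Over the 58 windows, the median of the tumor array had a Pearson correlation of -0.93 with this brightness (Spearman -0.93), compared to -0.91 over the windows of the other autosomes. For the control array the Pearson correlation was -0.83 (Spearman -0.79), compared to -0.76. For the difference it was -0.82 (Spearman -0.78), compared to -0.79. The windows share the array design and neighbouring windows are not independent, so these values are descriptions. Of the probes of chromosome 12, 58.4% were in the brightest of 5 equal classes of local brightness. In that class the tumor array had a median of -0.33 on chromosome 12 and -0.29 on the other autosomes, while the control array had -0.12 and -0.12. In the dimmest class, with 111 probes of chromosome 12, the tumor array had 0.21 and 0.23. Over the 5 classes the median of chromosome 12 minus that of the other autosomes ranged from -0.06 to 0.02 on the tumor array. How far brightness takes part in the low values was not tested.

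**Figure D4:**
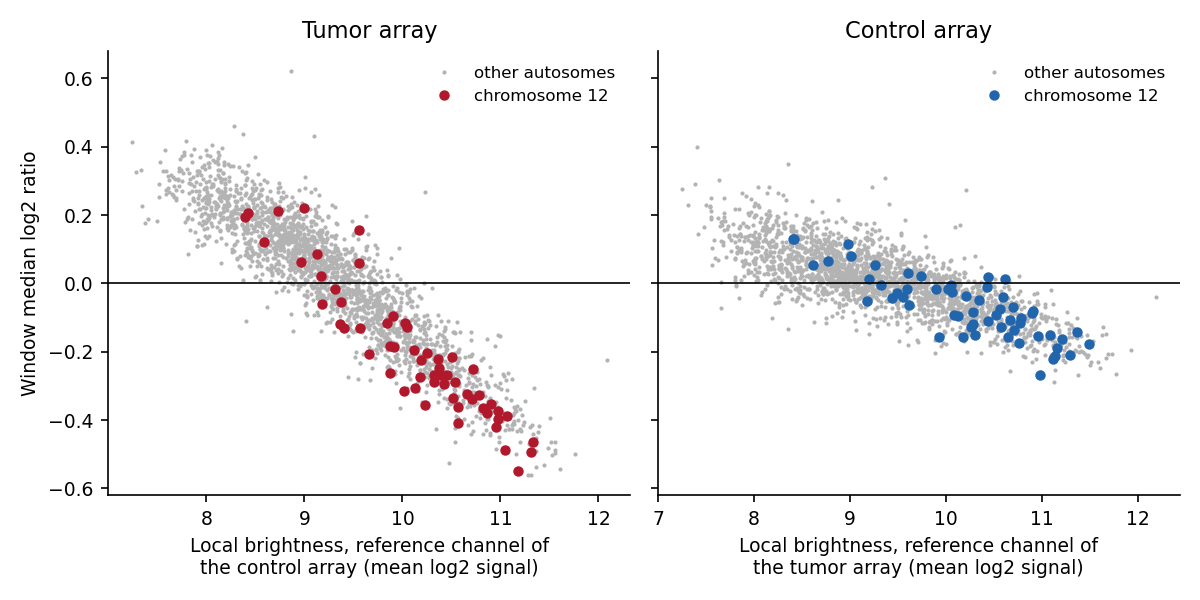
Window medians of the log2 ratio (vertical axis) against local brightness, the mean log2 signal of the reference channel of the other array (horizontal axis), for the tumor array (left, red) and the control array (right, blue), with the windows of the other autosomes in grey. The windows of chromosome 12 follow the falling trend of the other autosomes, with Pearson correlations of -0.93 for the tumor and -0.83 for the control.

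When the trend on local brightness was learned on the other 17 autosomes and removed, the median of chromosome 12 was -0.036 on the tumor array (95% interval -0.048 to -0.024) and -0.0038 on the control array (interval -0.019 to 0.0076). The value on the tumor array was still the lowest of the 18 autosomes, followed by chromosome 11 with -0.02. The difference was -0.03, and 2 chromosomes were lower. Both ranks set chromosome 12, which was left out of the fit, beside chromosomes on which the trend was learned. No window was low on either array, and the windows of the tumor array ranged from -0.17 to 0.16. The correlation of the 2 arrays over the windows was then 0.29. In the first 7 Mb the tumor array had -0.06, and from 25 to 31 Mb it had 0.07. From 31 to 33 Mb it had -0.12 beside 0.02 on the control array, and from 33 to 36 Mb it had -0.08 beside -0.0042. The lowest window after removal was that from 36 to 37 Mb, with -0.17 for the tumor and 0.04 for the control. The windows from 35 to 36 Mb, from 0 to 1 Mb and from 32 to 33 Mb followed with -0.16 each on the tumor array.

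**Figure D5:**
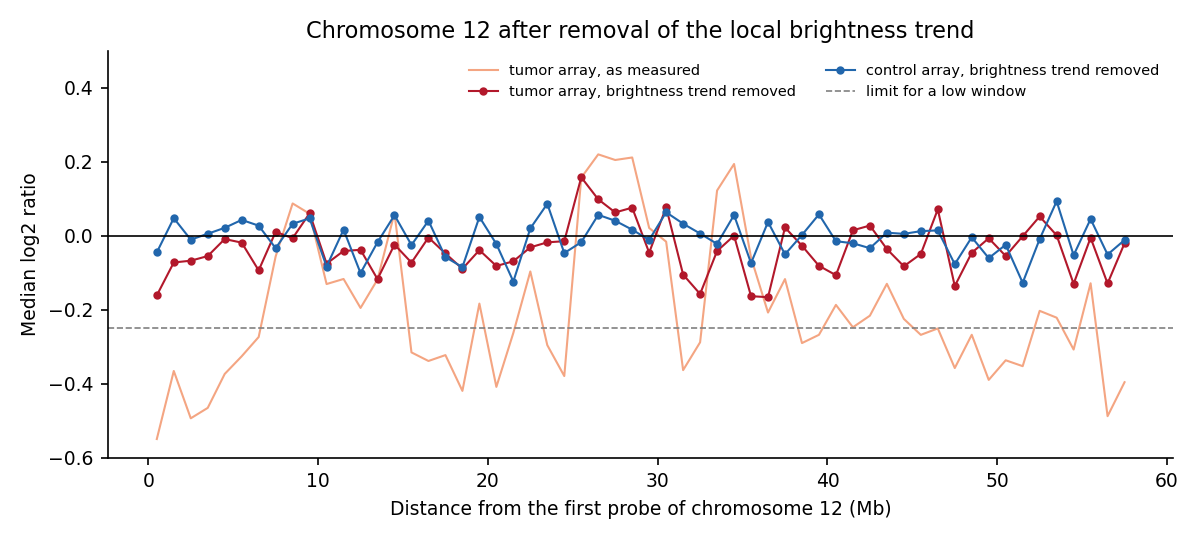
Window medians of the log2 ratio after removal of the trend on local brightness (vertical axis) against the distance from the first probe of chromosome 12 in Mb (horizontal axis), for the tumor array (red) and the control array (blue), with the tumor array as measured as a pale line and a dashed line at -0.25. After removal the tumor array ranges from -0.17 to 0.16, no window is below the dashed line, and the windows from 0 to 1 Mb, from 32 to 33 Mb and from 35 to 37 Mb are the lowest.

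The brightness of the single probe, in contrast to that of its surroundings, left more of the shift. With the probes divided into 5 equal classes, from dim to bright, by their own signal in the reference channel of the opposite array, chromosome 12 was below the other autosomes in each class of the tumor array. In class 3 the median was -0.05 on chromosome 12 (interval -0.08 to -0.01, 791 probes) and 0.13 on the other autosomes. In class 4 it was -0.18 (interval -0.21 to -0.15, 1025 probes) beside 0.00040. Over the 5 classes, chromosome 12 was lower than the other autosomes by 0.11 to 0.18 on the tumor array. On the control array the largest gap in size was -0.04, in the brightest class, and in 2 of the classes chromosome 12 was higher, by at most 0.0052. Both the division by single probes and the classes of local brightness were chosen after the values had been seen.

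The shift was present in all 4 sections of the slide. The probes of chromosome 12 were spread over the slide, with 1074 to 1158 probes in each section. On the tumor array their median was -0.233, -0.235, -0.235 and -0.215 in the 4 sections, and on the control array it was -0.11, -0.05, -0.11 and -0.06. Chromosome 12 was below the other autosomes in each section, by 0.22 to 0.25 on the tumor array and by 0.06 to 0.10 on the control array. The sections are parts of the same arrays, so these values cannot tell an effect of the whole slide from one of the tissue.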

How the data were processed

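The authors scanned the 2-colour arrays, and their software, Agilent Feature Extraction (version 11.0.1.1 per the labels), wrote the deposited processed intensity of each channel, with background subtracted and dyes normalized, and the deposited log10 ratio of red over green. Per the labels green holds the tissue, so log2 ratios were formed as green over red. The genome build of the probe positions is not given in the sources used here. Spots that were controls or carried an outlier flag in either channel were dropped, and the median of chromosomes 1 to 18 served as the centre of each array. Windows of 1 Mb needed at least 5 probes, and a window was low at -0.25 or lower. The trend on local brightness was a lowess curve with a fraction of 0.3.

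The windows named were the 5 lowest and 5 highest of the tumor array, the 5 lowest by difference, and the runs of at least 3 low windows. The last window and those nearest to the limit were also eligible. The chromosome, the gene lists and the settings were chosen with earlier results of these data known. The 7 stretches were marked off after the windows had been seen. Steps between windows, windows of 250 kb and medians of 5 neighbouring probes were chosen after the values were seen. Alternatives were the deposited log ratio, the value table of the series, the opposite direction, other centres, normexp background correction, filters on dim or outlier spots, other windows and limits, and the removal of brightness trends. Calculations used pandas 2.3.3, numpy 2.4.6, statsmodels 0.14.6 and scipy 1.17.1 under Python 3.11.15, normexp was run with limma 3.58.1 under R 4.3.3, and plots were drawn with matplotlib 3.10.9.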

Additional observations from a re-analysis of the deposited data

How the results depend on the processing

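Under 9 of 10 alternatives the median of chromosome 12 was below 0 on the tumor array, on the control array and for tumor minus control. The exception turned the ratio to reference over tissue, which by construction gave 0.229, 0.082 and 0.143 and no low window for any of the 3. The alternatives are not separate checks, since the value table of the series holds the same values as the deposited log ratio. On the control array the interval held 0 with centring on the mode (-0.017 to 0.0074) and with the trend on local brightness removed (-0.019 to 0.0076). For the medians, in the order tumor array, control array and difference, centring on the mode gave -0.2815, -0.0070 and -0.2708, since it shifts every tumor minus control value by -0.1275. Normexp background correction gave -0.267, -0.162 and -0.1045. Removing the trend on local brightness gave -0.036, -0.0038 and -0.026, and subtracting the medians of the 5 classes of single-probe brightness, chosen after seeing the data, gave -0.137, -0.016 and -0.118. The deposited log ratio and the value table of the series gave -0.19 for the tumor array and -0.11 for the difference. The deposited log ratio is 0 although the signals differ for 69 probes of chromosome 12 on the tumor array and for 71 on the control array. Probes well above background in both channels gave a difference of -0.164.

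The count of low windows, 29 on the tumor array, was 0 after removal of the trend and 8 with the classes. It was 58 of 115 with windows of 0.5 Mb, 12 of 29 with 2 Mb and 6 of 12 with 5 Mb. The count of 1 on the control array became 18 with normexp, 6 with windows of 0.5 Mb and 4 at a limit of -0.2. It was 0 with probes well above background, centring on the mode, both brightness corrections, windows of 2 and 5 Mb, a limit of -0.3 and window means. The count of 5 for the difference became 33 with centring on the mode, 14 with window means, 13 with windows of 0.5 Mb and 13 at a limit of -0.2. It was 2 with windows of 2 Mb and with the classes, 1 with windows of 5 Mb, a limit of -0.3, the deposited log ratio and the value table, and 0 with normexp and with the trend removed. Where not given by construction, the cause was not tested.

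The planned GC correction was not run, since no probe sequences were used here. No paired analysis was possible because each tissue has 1 array, and for the same reason no array could be left out. The dimmest reference signal of the control array was that of the window from 34 to 35 Mb, and the window with the fewest probes, from 27 to 28 Mb, held 29.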

Other observations

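The lowest median of 5 neighbouring probes on the tumor array was found at 2594626 to 2652020 of chromosome 12, inside the low first 7 Mb, with a log2 ratio of -1.10. Its probes ranged from -1.13 to -0.42 for the tumor, the control median was -0.41, and all 5 tissue signals were well above background on the tumor array. The next lowest that did not overlap it or each other were found at 6873676 to 6913495, with -0.93 for the tumor and -0.61 for the control, and at 43569351 to 43660970, with -0.92 and -0.14. In each of these 2 stretches only 60% of the tissue signals were well above background on the tumor array. The highest was found at 14253326 to 14304245, with 0.86 for the tumor and 0.38 for the control, among dim probes with a median reference signal of 38.4. These stretches were chosen by their values and share probes with their neighbours.

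Of the 4421 such groups of 5 probes on chromosome 12, 4 had a median of -1.0 or lower on the tumor array, a share of 0.0905% beside 0.0372% on the other autosomes, and none on the control array, beside 0.0031% on the other autosomes. For tumor minus control no group was that low on chromosome 12, beside 0.253% on the other autosomes. All 4 groups of the tumor array overlap at 1 site of 8 probes, from 2585376 to 2682545, so the share rests on that site. A median of 0.58 or higher was found for 25 groups on the tumor array, a share of 0.566% beside 2.67% on the other autosomes. The control array had 34 such groups, a share of 0.769% beside 2.50%. For tumor minus control there were 15, a share of 0.339% beside 1.87%.

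The lowest difference between the arrays was found at 19430551 to 19473145, with a tumor minus control value of -0.98. There the tumor array had -0.24 and the control array 0.74, in dim probes with a median reference signal of 45.4 on the tumor array. The highest difference was found at 27418851 to 27760220, with 0.86, where the tumor array had 0.38 and the control array -0.26 and the reference channel was dim.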
